A study of Mus musculus with 6 samples.

Results

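The *Yap1*, *Wwtr1* and *Tead* genes of the Hippo pathway were measured in DBA-positive cells from the kidneys of WT, ADPKD and MMPP-treated ADPKD mice, together with the kinase genes *Lats1* and *Lats2* and the target genes *Ankrd1* and *Amotl2*. The 10 genes were chosen by symbol, and each symbol was found once in all 6 libraries, as 10 of 55367 gene symbols. The 3 groups were WT given saline, *Pkd1*-/- given saline (ADPKD) and *Pkd1*-/- given MMPP (ADPKD+MMPP), with 2 libraries each, all labelled Day115 and as kidney tubular epithelial cells. *Pkd1* was deleted in male *Pkd1* fl/fl mice by a tamoxifen-inducible Cre (Cre/Esr1+), and the promoter that drives this Cre, the strain and the animals behind each library are not given in the sources used here. MMPP is an ultra-small, manganese-chelated, melanin-like nanoparticle coated with PEG that was injected intravenously, and DBA is a plant lectin that binds collecting duct epithelium. Nothing says that the libraries of a group came from separate animals, so p-values measure only the spread between these libraries.

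As background, the Hippo pathway is a kinase cascade in which STK3 and STK4 (MST kinases) activate LATS1 and LATS2, which phosphorylate the co-activators YAP (*Yap1*) and TAZ (*Wwtr1*) and hold them in the cytoplasm for degradation. When LATS activity is low, YAP and TAZ enter the nucleus and bind the TEAD transcription factors, which carry the DNA binding that YAP and TAZ lack. In the kidney the pathway is known for its part in tubule growth and in the response of epithelium to stretch and density, and several of its own regulators, *Lats2* and *Amotl2* among them, are also YAP/TAZ target genes.

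The promoters of these genes were searched for the core letters that TEAD proteins recognise, CATTCC, which read GGAATG on the opposite strand. RefSeq gave 12 windows for 8 of the 10 genes on GRCm38.p6, each covering 250 bases before and 50 bases after a start site, and none for *Tead1* and *Tead4*. The core was found on either strand in 8 of the 12 windows and in 6 of the 8 genes, against 14.7% of 32851 windows and 16.6% of 27025 genes over the whole table. Windows of a gene can overlap, and the same core was counted in both windows of *Wwtr1*. *Ankrd1*, *Amotl2* and *Lats2* were already known as YAP/TAZ targets, so the genes are not a neutral sample of the table. The genes with a core were *Yap1*, *Wwtr1*, *Tead3*, *Lats2*, *Ankrd1* and *Amotl2*, while *Tead2* and *Lats1* had none in their windows. *Tead3* had the most, with 1 core in 1 window and 3 in another, and its stretches are not shown. The CRE letters TGACGTCA were in 0 of the 12 windows (1.79% of all windows) and the AP-1 letters TGANTCA in 0 of the 12 (7.81% of all windows). A match describes letters in a window and does not show that a factor was bound. A link of cores with changes in level was not tested. The stretches below are shown because their genes carry the results that follow, each 5′ to 3′ on the strand of its gene, with the TEAD core in capitals and positions counted from +1 at the first transcribed base.

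*Ankrd1* has 2 cores, which begin at -210 and -123, in chr19:36119845-36120094 (minus strand), and had the highest gain of the 10 genes in ADPKD.
Ankrd1: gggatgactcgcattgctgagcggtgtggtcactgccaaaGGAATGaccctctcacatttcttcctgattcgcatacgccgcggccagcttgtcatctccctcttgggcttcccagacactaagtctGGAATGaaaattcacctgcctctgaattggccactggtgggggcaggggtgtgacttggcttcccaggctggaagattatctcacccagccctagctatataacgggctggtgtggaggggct
*Lats2* has its core just after the start site, at +5, in chr14:57746094-57746373 (minus strand), and had the lowest log2 fold change of the 10 genes in ADPKD.
Lats2: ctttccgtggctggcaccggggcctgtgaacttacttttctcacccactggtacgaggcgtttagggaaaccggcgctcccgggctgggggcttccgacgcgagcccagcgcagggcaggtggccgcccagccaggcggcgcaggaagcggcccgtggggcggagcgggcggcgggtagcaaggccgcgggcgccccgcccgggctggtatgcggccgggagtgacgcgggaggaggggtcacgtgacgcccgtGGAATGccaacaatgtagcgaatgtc
*Amotl2* has its core at -65 in chr9:102717554-102717803 (plus strand), and had the lowest level of the 10 genes after MMPP.
Amotl2: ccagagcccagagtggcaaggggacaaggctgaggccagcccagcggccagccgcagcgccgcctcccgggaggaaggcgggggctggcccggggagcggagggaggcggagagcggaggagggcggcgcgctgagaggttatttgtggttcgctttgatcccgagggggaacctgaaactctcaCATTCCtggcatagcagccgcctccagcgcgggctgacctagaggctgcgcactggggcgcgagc
*Yap1* has its core at -141 in chr9:8004597-8004846 (minus strand).
Yap1: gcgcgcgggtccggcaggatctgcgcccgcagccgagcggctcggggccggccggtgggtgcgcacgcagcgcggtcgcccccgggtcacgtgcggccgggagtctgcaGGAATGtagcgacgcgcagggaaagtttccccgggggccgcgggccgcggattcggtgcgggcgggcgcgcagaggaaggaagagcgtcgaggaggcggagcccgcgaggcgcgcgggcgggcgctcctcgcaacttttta
*Wwtr1* has its core at -136 in chr3:57575911-57576160 (minus strand), and the same letters lie at -170 from its other start site.
Wwtr1: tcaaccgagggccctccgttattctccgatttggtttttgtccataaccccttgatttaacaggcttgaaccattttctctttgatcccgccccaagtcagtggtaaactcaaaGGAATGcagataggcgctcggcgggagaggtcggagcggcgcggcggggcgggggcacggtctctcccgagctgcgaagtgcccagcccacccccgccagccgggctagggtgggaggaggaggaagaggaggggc

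**Figure D1:**
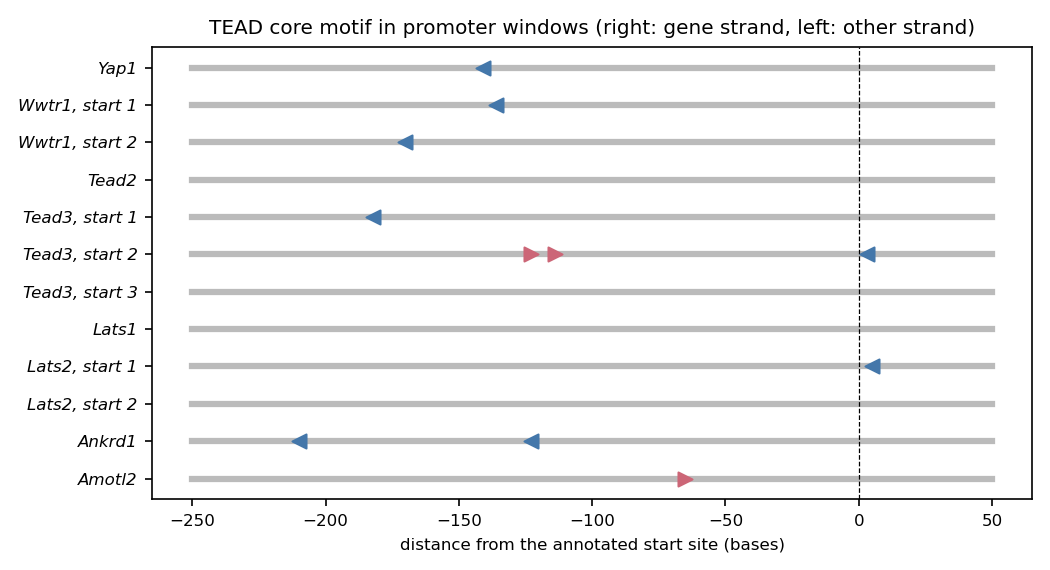
Position of each CATTCC or GGAATG core (points) in the promoter windows of the 8 genes with a RefSeq window; the x axis is the distance from the start site in bases, from 250 before to 50 after it. Cores were seen in 8 of the 12 windows. The single window of *Ankrd1* holds 2 cores, and *Tead3* holds 1 core at start 1 and 3 cores at start 2.

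Levels are given as FPKM, in which fragments are scaled to exon length and library size. This scaling is meant to let genes be set beside each other. Values in ADPKD+MMPP also moved with the transcript structure of a gene, as given below. Depth, read from the steps in which low FPKM values rise, was between 30.6 and 33.1 M reads in the WT and ADPKD libraries, and 11.8 and 10.9 M reads in the ADPKD+MMPP libraries. The ADPKD+MMPP values also differed in kind: 8.07% and 7.44% of their low read numbers were odd, against 36.3% to 37.9% in the other libraries. Of the 20 read numbers of the 10 genes in the ADPKD+MMPP libraries, 19 were even, against 13 of 20 in WT and 10 of 20 in ADPKD. The effect of treatment and that of a different making of these values cannot be told apart. *Pkd1*, the deleted gene, was 17.7 and 17.2 FPKM in WT, 7.64 and 8.91 FPKM in ADPKD, and 4.34 and 3.99 FPKM in ADPKD+MMPP, so it was lower in every *Pkd1*-/- library. The collecting duct water channel *Aqp2* was high in every library, from 677 to 3555 FPKM, whereas the vasopressin receptor *Avpr2* was at or near 0 in all of them. ADPKD replicate 2 stood apart from ADPKD replicate 1 in principal cell markers, with 677 against 1392 FPKM of *Aqp2* and 56.4 against 432 FPKM of *Hsd11b2*. Its marker sums were also lower for proximal tubule (270 against 879 FPKM) and for thick limb and distal tubule (181 against 620 FPKM). The same held for intercalated cells (29.2 against 63.4 FPKM) and podocytes (90.8 against 205 FPKM). Sums were higher for macrophages and leukocytes (451 against 381 FPKM), stroma (213 against 188 FPKM) and endothelium (538 against 528 FPKM).

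*Wwtr1* had the highest mean of the 10 genes in each group, and *Tead4* had the lowest in WT and in ADPKD, where it overlapped *Tead2*. In WT, *Wwtr1* at 54.9 ± 2.09 FPKM (SD, n = 2) and *Amotl2* at 47.9 ± 9.58 FPKM (SD, n = 2) had overlapping libraries and were followed by *Yap1* at 18.2 ± 1.06 FPKM (SD, n = 2). *Lats2*, *Lats1*, *Tead1* and *Tead3* came next, in that order, with libraries that did not overlap between neighbours. *Ankrd1* at 6.38 ± 3.03 FPKM (SD, n = 2) overlapped both *Tead3* above it and *Tead2* below it. In ADPKD, *Ankrd1* came after *Amotl2* and before *Yap1*, with no overlap to either, and *Lats2* stood among the lowest, where it overlapped *Tead2*. In ADPKD+MMPP, *Wwtr1* at 12.6 ± 0.0765 FPKM (SD, n = 2) overlapped *Lats1* at 12.1 ± 1.07 FPKM (SD, n = 2), and *Yap1*, *Tead1*, *Tead2*, *Tead4* and *Amotl2* were each near 1 FPKM or lower. The order in ADPKD+MMPP was not corrected for transcript structure. *Wwtr1* had 6.86% of its exon bases in exactly 1 annotated transcript and *Lats1* had 42.6%.

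**Figure D2:**
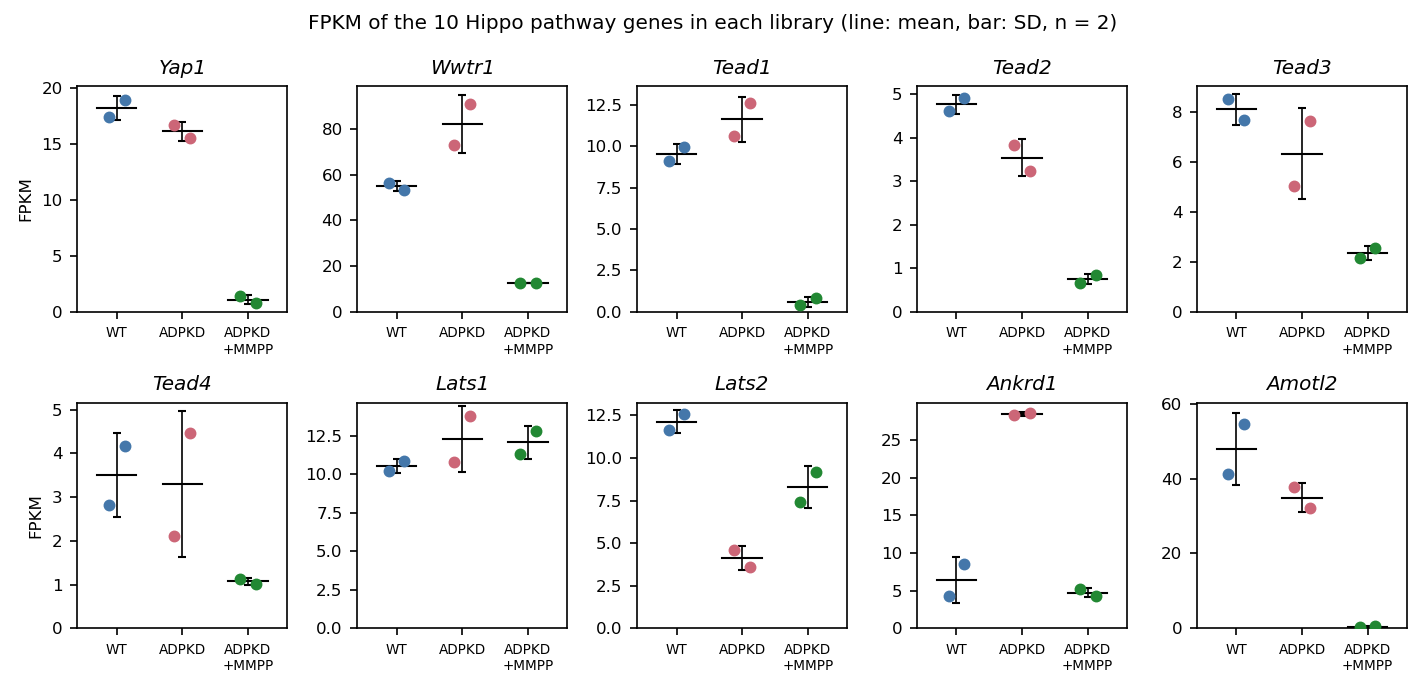
FPKM of the 10 genes in each of the 6 libraries on a linear axis for each gene. Points are libraries, with a line for the mean and a bar for the SD of the 2 libraries of a group. *Ankrd1* rose from 6.38 to 28.5 FPKM on average in ADPKD, and *Amotl2* was under 1 FPKM in both ADPKD+MMPP libraries.

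The comparison of ADPKD with WT asks which of these genes differed once *Pkd1* was lost. *Ankrd1* was higher and *Lats2* lower in ADPKD, and the other 8 genes were not called, among them *Yap1*, *Wwtr1* and all 4 *Tead* genes. A gene was called when its fold change on log2(FPKM + 1) was at least 1.5 in either direction and its p from limma, adjusted by Benjamini-Hochberg over 14862 tested genes, was below 0.05. All 10 genes passed the filter on low values, an FPKM of 1 or more in 2 or more libraries. The 2 calls among 10 stand beside 22.5% called of all genes tested (11.9% higher and 10.6% lower), which is close to the share among the members. The median log2 fold change of the 10 genes was -0.14 and that of all genes tested was 0.03.

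*Ankrd1* encodes an ankyrin repeat protein that is widely used as a readout of YAP/TAZ activity, and lies on chromosome 19 from 36111961 to 36120099 (minus strand, GRCm38). It was measured at 4.24 and 8.53 FPKM in WT and at 28.3 and 28.6 FPKM in ADPKD. Both ADPKD libraries lay well above both WT libraries, and the WT libraries themselves differed while those of ADPKD were close together. The log2 fold change was 2.06 ± 0.29 (SE), a fold of 4.17, with an adjusted p of 0.00700 by limma, and only 1.39% of all genes tested had a higher one. Behind these values stood 374 and 762 reads in WT and 2700 and 2650 reads in ADPKD.

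*Lats2* encodes a kinase that phosphorylates YAP and TAZ, and lies on chromosome 14 from 57689662 to 57758388 (minus strand). It was measured at 11.6 and 12.6 FPKM in WT and at 4.62 and 3.61 FPKM in ADPKD, so that the groups did not overlap and the replicates of each were close. The log2 fold change was -1.36 ± 0.16 (SE), a fold of 2.57 downwards, with an adjusted p of 0.00506 by limma, and 3.32% of all genes tested had a lower one. Fewer cells of a type and less RNA per cell cannot be told apart in these bulk libraries. Its paralog *Lats1*, on chromosome 10 from 7681214 to 7716460 (plus strand), was measured at 10.2 and 10.9 FPKM in WT and at 10.8 and 13.8 FPKM in ADPKD. These libraries overlapped, and the log2 fold change of *Lats1* was 0.20 ± 0.16 (SE) with an adjusted p of 0.385 by limma. *Lats2* over *Lats1* was 1.14 and 1.16 in the WT libraries and 0.428 and 0.261 in the ADPKD libraries, so the paralogs were at like levels in WT and *Lats1* was the more abundant in ADPKD.

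Of the co-activators, *Wwtr1* (TAZ), on chromosome 3 from 57455649 to 57575910 (minus strand), was measured at 56.4 and 53.4 FPKM in WT and at 73.0 and 90.9 FPKM in ADPKD. The ADPKD libraries were above those of WT but differed from each other by more than the WT libraries did. The log2 fold change was 0.56 ± 0.14 (SE), a fold of 1.48, with an adjusted p of 0.0387 by limma, which passed the p threshold and missed the fold threshold. Without ADPKD replicate 1 it passed both, at 0.72. *Yap1*, on chromosome 9 from 7931999 to 8004596 (minus strand), was measured at 17.4 and 19.0 FPKM in WT and at 16.7 and 15.5 FPKM in ADPKD. Its ADPKD libraries lay just below those of WT, and the log2 fold change was -0.16 ± 0.17 (SE) with an adjusted p of 0.499 by limma. *Wwtr1* over *Yap1* was 3.23 and 2.82 in WT and 4.36 and 5.85 in ADPKD, higher in both ADPKD libraries.

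The 4 *Tead* genes encode the DNA-binding partners of YAP and TAZ. *Tead1*, on chromosome 7 from 112679318 to 112906807 (plus strand), was the most abundant of them, at 9.12 and 9.98 FPKM in WT and at 10.6 and 12.6 FPKM in ADPKD, and its log2 fold change of 0.25 ± 0.17 (SE) was not called (adjusted p = 0.315, limma). *Tead2*, on chromosome 7 from 45215753 to 45233644 (plus strand), was measured at 4.62 and 4.91 FPKM in WT and at 3.84 and 3.24 FPKM in ADPKD, with a log2 fold change of -0.35 ± 0.13 (SE) and an adjusted p of 0.104 by limma. Neither gene's libraries overlapped between the groups, yet neither passed the test. *Tead3*, on chromosome 17 from 28331671 to 28350817 (minus strand), was measured at 8.51 and 7.66 FPKM in WT and at 5.03 and 7.61 FPKM in ADPKD. Only ADPKD replicate 1 was far below WT, and the log2 fold change of -0.33 ± 0.20 (SE) was not called (adjusted p = 0.259, limma), but passed at -0.59 without ADPKD replicate 2. *Tead4*, on chromosome 6 from 128224288 to 128300823 (minus strand), was measured at 2.82 and 4.17 FPKM in WT and at 2.11 and 4.47 FPKM in ADPKD, so that the ADPKD libraries lay on both sides of WT. The 4 genes summed to 25.1 and 26.7 FPKM in WT and to 21.6 and 27.9 FPKM in ADPKD, which overlap. *Tead1* made up 36.4% and 37.3% of that sum in WT and 49.2% and 45.1% in ADPKD.

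*Amotl2* encodes an angiomotin-like protein that holds YAP at cell junctions and is itself a YAP/TAZ target, on chromosome 9 from 102716672 to 102733418 (plus strand). It was measured at 41.1 and 54.6 FPKM in WT and at 37.7 and 32.1 FPKM in ADPKD. The ADPKD libraries lay below those of WT, in the opposite direction to *Ankrd1*, and the log2 fold change of -0.44 ± 0.19 (SE) was not called (adjusted p = 0.141, limma). Over the 10 genes, the ADPKD libraries lay above both WT libraries for 3 genes, below for 5 and among them for 2. Over all genes tested, the libraries did not overlap for 67% (35.5% above and 31.5% below).

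**Figure D3:**
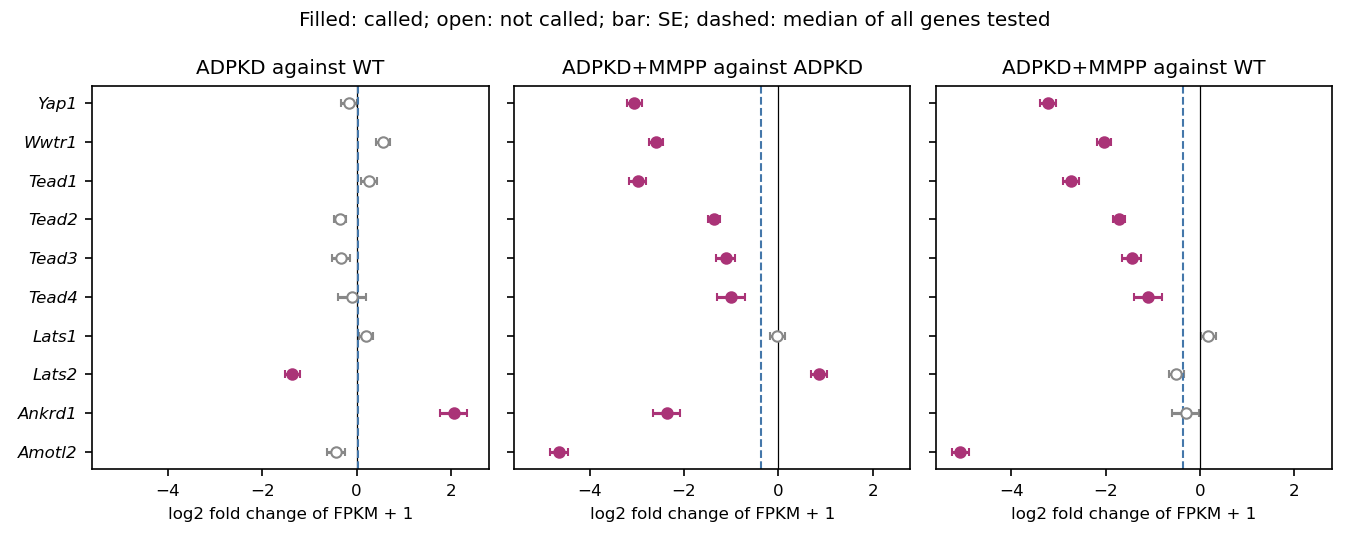
Log2 fold change of FPKM + 1 for the 10 genes (points, with SE from limma as bars) in the 3 comparisons. In ADPKD against WT only *Ankrd1* (2.06) and *Lats2* (-1.36) were called, and in ADPKD+MMPP against ADPKD 8 genes were lower and *Lats2* (0.86) was higher.

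Other cell types moved with these comparisons, and their part in the results was not tested. The counts of markers below stand beside 22.5% called of all genes tested in ADPKD against WT (11.9% higher and 10.6% lower). All 5 podocyte markers were lower in ADPKD, with a summed level of 900 to 1231 FPKM in WT and 90.8 to 205 FPKM in ADPKD. All 6 tested of 7 macrophage and leukocyte markers were higher, with sums of 52.9 to 55.9 FPKM in WT and 381 to 451 FPKM in ADPKD and with *Cd3e* near 0. Of 8 stromal markers, 5 were higher and 1 was lower, with sums of 112 to 139 FPKM in WT and 188 to 213 FPKM in ADPKD, and 6 of 7 endothelial markers were lower and 1 was higher, with sums of 731 to 878 FPKM in WT and 528 to 538 FPKM in ADPKD. All 7 intercalated cell markers were lower, from 274 to 290 FPKM in WT to 29.2 to 63.4 FPKM in ADPKD, and 8 of 12 genes of dissociation and heat stress were lower, with sums of 11087 to 11715 FPKM in WT and 5006 to 6692 FPKM in ADPKD. Of the 7 tested principal cell markers, 0 were called, with sums of 2079 to 2776 FPKM in WT and 942 to 2482 FPKM in ADPKD. Of 11 proximal tubule markers, 3 were higher and 0 lower, with sums of 390 to 707 and 270 to 879 FPKM. Of 5 thick limb and distal tubule markers, 1 was lower, with sums of 512 to 1292 and 181 to 620 FPKM.

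The rest of the pathway was described from lists of 11 kinase cassette genes, 13 upstream regulators and 4 TEAD cofactors, of which 26 of 28 genes were tested. In ADPKD against WT, 2 were higher, 3 were lower and 21 were not called, with a median log2 fold change of -0.07, beside the 11.9% higher and 10.6% lower of all genes tested. Of the MST kinase genes, *Stk3* was measured at 4.72 and 4.63 FPKM in WT and at 3.45 and 2.71 FPKM in ADPKD. Its log2 fold change of -0.48 (adjusted p = 0.0482 by limma) passed the p threshold and missed the fold threshold. *Stk4* (log2 fold change 0.00) and the MST scaffold *Sav1* (0.18) were not called either. The lower genes were *Amotl1*, an angiomotin-like partner of YAP, at 25.7 ± 0.572 FPKM (SD, n = 2) in WT and 10.7 ± 0.541 FPKM (SD, n = 2) in ADPKD, *Nf2*, which encodes the upstream activator merlin (log2 fold change -0.63), and *Taok2*, a kinase that activates the MST kinases (-1.05). The higher genes were *Mob1b*, a co-activator of LATS kinases (0.59), and *Wwc1*, which encodes the upstream regulator KIBRA (0.61). Both lay just past the fold threshold, and 0 of the 26 genes were higher under TMM, quantile or common-sum scaling.

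A list of YAP target genes known from other cells, taken without the members of the set and with 18 of 19 genes tested, was divided in direction. In ADPKD against WT, 5 of the 18 were higher, 6 were lower and 7 were not called, with a median log2 fold change of -0.23, beside the same shares of all genes tested (11.9% and 10.6%). *F3*, which encodes tissue factor, was measured at 30.9 and 43.1 FPKM in WT and at 284 and 375 FPKM in ADPKD, a log2 fold change of 3.13 ± 0.21 (SE, adjusted p = 0.00224 by limma). *Igfbp3*, which encodes a binding protein for insulin-like growth factors, was measured at 30.4 and 25.7 FPKM in WT and at 134 and 323 FPKM in ADPKD, and *Fjx1* had a log2 fold change of 1.39. The ADPKD libraries of both *F3* and *Igfbp3* were far above those of WT. In the other direction, *Ccdc80* had a log2 fold change of -1.87 and *Nt5e*, which encodes the ectonucleotidase CD73, of -1.32. The textbook targets *Ccn1* and *Ccn2* were not called: *Ccn1* was measured at 405 and 346 FPKM in WT and at 484 and 350 FPKM in ADPKD, and *Ccn2* at 72.8 and 85.2 FPKM in WT and at 64.1 and 128 FPKM in ADPKD. Without ADPKD replicate 1, *Ccn2* was called at 0.69. Without a WT library, 1 (replicate 1) or 2 (replicate 2) of the 18 were higher.

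**Figure D4:**
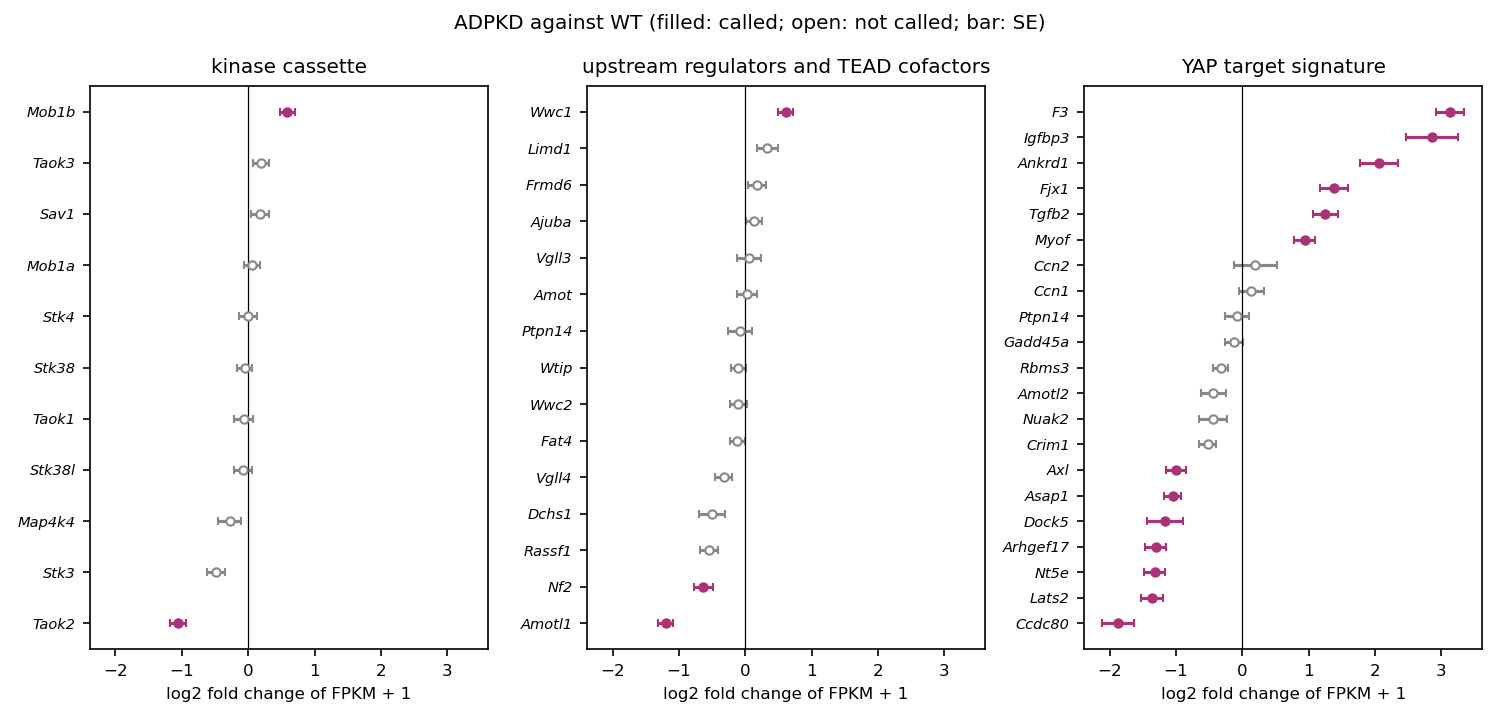
Log2 fold change of FPKM + 1 in ADPKD against WT for the tested genes of the wider pathway and of the YAP target list (points, with SE as bars). Unlike in the text, the target list is drawn with the members *Ankrd1*, *Lats2* and *Amotl2*. *Ptpn14* is both an upstream regulator and a target in the lists, and is drawn and counted in both. Pathway genes lay mostly near 0, while the targets spread from -1.87 (*Ccdc80*) to 3.13 (*F3*).

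The comparison of ADPKD+MMPP with ADPKD asks what differed with treatment, and it shares its ADPKD libraries with the comparison above. *Yap1*, *Wwtr1*, the 4 *Tead* genes, *Ankrd1* and *Amotl2* were lower in ADPKD+MMPP, *Lats2* was higher and *Lats1* was not called. The 8 lower genes and 1 higher gene among 10 stand beside 70.3% called of all genes tested (42.6% lower and 27.7% higher). The treated libraries lay below both ADPKD libraries for 8 genes and above them for 1, beside 51.7% and 36.1% of all genes tested, and 87.8% in either direction. The median log2 fold change was -1.87 for the 10 genes and -0.36 for all genes tested, and that of all genes moved between -0.55 and 0.10 with the scaling of the libraries.

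Values in this comparison moved with the transcript structure of a gene. Over protein-coding genes, the median log2 fold change ran from -1.70 in genes with 5.17% of their exon bases in exactly 1 annotated transcript to 1.10 in genes with 100%, whereas in ADPKD against WT it lay at 0.05 and 0.02 in the same bins. The 10 genes had between 6.86% (*Wwtr1*) and 54.5% (*Tead3*) of their exon bases in 1 transcript, all on the side where the median was below 0. With each library centred inside bins of that percentage, 4 of the 10 genes were lower and 2 were higher, beside 24.4% lower and 33.2% higher of the 12492 protein-coding genes tested. *Amotl2* (-2.94), *Yap1* (-2.40), *Tead1* (-1.32) and *Ankrd1* (-1.19) were called lower in both settings. *Wwtr1* (-0.49), *Tead2* (-0.49), *Tead3* (-0.46) and *Tead4* (-0.11) were not called after centring.

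**Figure D5:**
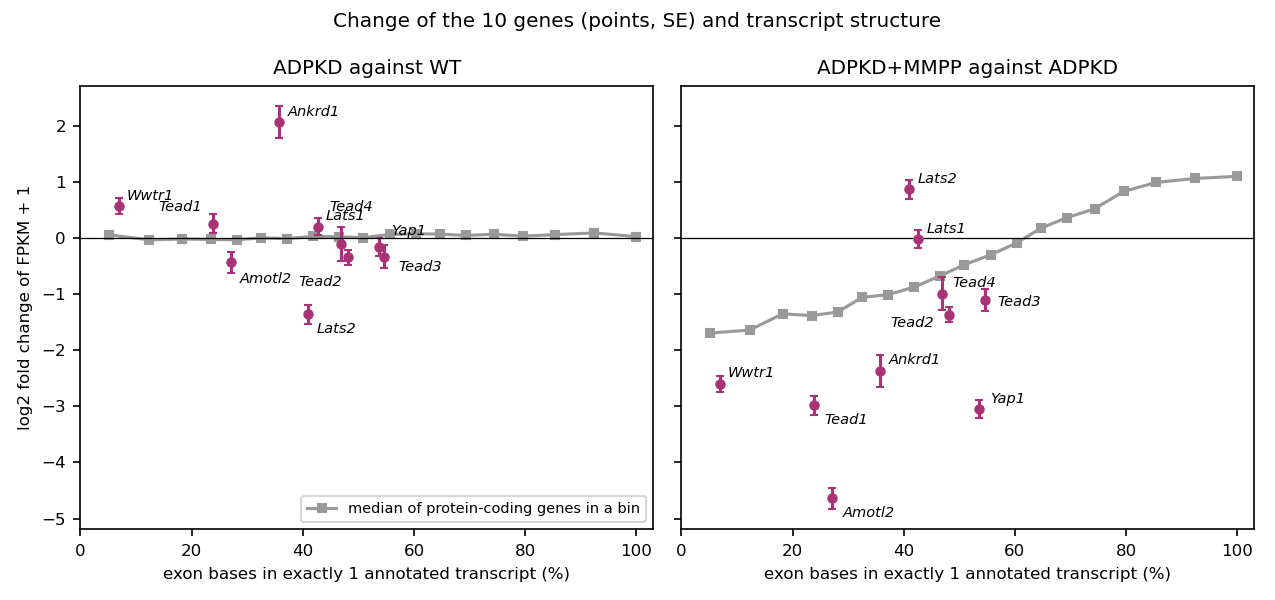
Log2 fold change of FPKM + 1 of the 10 genes (points, SE as bars) against the percentage of exon bases found in exactly 1 annotated transcript of the gene, with the median of protein-coding genes in each bin (squares). The median stays near 0 in ADPKD against WT, and runs from -1.70 to 1.10 in ADPKD+MMPP against ADPKD, with *Yap1* and *Amotl2* far below it.

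*Amotl2* was measured at 37.7 and 32.1 FPKM in ADPKD and at 0.323 and 0.554 FPKM in ADPKD+MMPP, on 24 and 38 reads. It had the lowest log2 fold change of the 10, -4.64 ± 0.19 (SE, adjusted p = 2.4e-05 by limma), and 0.632% of all genes tested had a lower one. *Yap1* was measured at 16.7 and 15.5 FPKM in ADPKD and at 1.37 and 0.802 FPKM in ADPKD+MMPP, a log2 fold change of -3.05 ± 0.17 (SE, adjusted p = 4.5e-05 by limma). Both genes were near 1 FPKM or below in both treated libraries, far under every WT and ADPKD library. *Wwtr1* was measured at 73.0 and 90.9 FPKM in ADPKD and at 12.7 and 12.6 FPKM in ADPKD+MMPP, a log2 fold change of -2.60 ± 0.14 (SE, adjusted p = 4.7e-05 by limma). *Yap1* and *Wwtr1* together summed to 89.7 and 106 FPKM in ADPKD and to 14.1 and 13.4 FPKM in ADPKD+MMPP, below the 73.8 and 72.4 FPKM of WT. *Wwtr1* made up most of this sum, and its log2 fold change after centring was -0.49 against ADPKD and -0.06 against WT, called in neither.

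The *Tead* genes summed to 21.6 and 27.9 FPKM in ADPKD and to 4.35 and 5.21 FPKM in ADPKD+MMPP. *Tead1* was measured at 0.399 and 0.810 FPKM in ADPKD+MMPP, on 64 and 120 reads, against 10.6 and 12.6 FPKM in ADPKD, a log2 fold change of -2.98 ± 0.17 (SE, adjusted p = 5.1e-05 by limma). *Tead2* was measured at 0.672 and 0.842 FPKM, *Tead3* at 2.14 and 2.54 FPKM and *Tead4* at 1.13 and 1.02 FPKM in the treated libraries, each below both ADPKD libraries. Their log2 fold changes were -1.37 for *Tead2*, -1.11 for *Tead3* and -0.99 for *Tead4*. *Tead3* was then the most abundant, at 49.3% and 48.7% of the summed FPKM, and *Tead1* made up 9.19% and 15.6%. *Tead1* had 23.8% of its exon bases in 1 transcript and *Tead3* 54.5%, and the part of transcript structure in this order was not tested. The call of *Tead4* was lost without ADPKD replicate 2 (-0.58) without either treated library (-1.03 and -0.95), under TMM factors (-0.79), with no filter on low values and at a fold threshold of 2. Quantile scaling ended the calls of *Tead3* (-0.48) and *Tead4* (-0.36).

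*Ankrd1* was measured at 5.17 and 4.32 FPKM in ADPKD+MMPP, against 28.3 and 28.6 FPKM in ADPKD, and its log2 fold change was -2.36 ± 0.29 (SE, adjusted p = 0.000633 by limma). The treated libraries lay within the WT range of 4.24 to 8.53 FPKM. *Lats2* was measured at 7.41 and 9.18 FPKM in ADPKD+MMPP, between the ADPKD libraries (4.62 and 3.61 FPKM) and the WT libraries (11.6 and 12.6 FPKM). Its log2 fold change was 0.86 ± 0.16 (SE, adjusted p = 0.00393 by limma) and 1.98 after centring by transcript structure. *Lats1* was measured at 11.3 and 12.8 FPKM in ADPKD+MMPP, inside the ADPKD range, with a log2 fold change of -0.02 ± 0.16 (SE, adjusted p = 0.922 by limma), which became 1.10 and was called higher after centring. *Lats2* over *Lats1*, genes with 41.0% and 42.6% of their exon bases in 1 transcript, was 0.654 and 0.715 in the treated libraries, above both ADPKD libraries and below both WT libraries.

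Set directly against WT, ADPKD+MMPP had 7 of the 10 genes lower and 0 higher by limma, at adjusted and unadjusted p alike, beside 73.4% called of all genes tested (43.5% lower and 29.9% higher). The libraries lay apart, lower, for 8 of the genes and, higher, for 1, beside 53% and 38.9% of all genes tested and 91.9% in either direction. The lower genes were *Amotl2* (log2 fold change -5.08), *Yap1* (-3.21), *Tead1* (-2.73), *Wwtr1* (-2.04), *Tead2* (-1.72), *Tead3* (-1.44) and *Tead4* (-1.10). *Ankrd1* (-0.30 ± 0.29, SE) overlapped WT and was not called (adjusted p = 0.360, limma), though without WT replicate 1, the lower WT library being left out, it was called at -0.73. *Lats2* (-0.50 ± 0.16, SE) was below both WT libraries and missed the fold threshold (adjusted p = 0.0304, limma), and was called at -0.64 without ADPKD+MMPP replicate 2. *Lats1* (0.18 ± 0.16, SE) was not called. After centring by transcript structure, *Lats1* (1.32), *Ankrd1* (0.90) and *Lats2* (0.64) were called higher than WT and 5 genes lower, beside 35.4% higher and 26.8% lower of the protein-coding genes. *Wwtr1* (-0.06) and *Tead4* (-0.24) were then no longer called, and *Tead4* was not called either under quantile scaling, with no filter on low values, without WT replicate 2 (-0.88) or without either treated library (-1.14 and -1.06). Since *Ankrd1* and *Lats2* turned with centring, no direction against WT is given for them.

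In the rest of the pathway, 5 of the 26 tested genes were higher and 9 were lower in ADPKD+MMPP than in ADPKD, with a median log2 fold change of -0.13, beside the 27.7% higher and 42.6% lower of all genes tested. TMM factors gave 9 higher and quantile scaling 4 lower. Of the LATS co-activator genes, *Mob1a* was measured at 25.8 and 24.7 FPKM in ADPKD and at 0.106 and 0.038 FPKM in ADPKD+MMPP, a log2 fold change of -4.61. *Mob1b* was measured at 5.68 and 6.15 FPKM in ADPKD and at 8.86 and 8.84 FPKM in ADPKD+MMPP, so the paralogs lay in opposite directions. *Mob1a* had 8.03% of its exon bases in 1 transcript and *Mob1b* 81.8%. The kinase gene *Map4k4* had a log2 fold change of -3.74, and the upstream genes *Wwc1* (1.82), *Wtip* (1.44) and *Nf2* (1.10) were higher. *Map4k4* had 36.6% of its exon bases in 1 transcript, *Wwc1* 86.7%, *Wtip* 59.2% and *Nf2* 59.4%. These changes are not given after centring. Of the 18 YAP targets, 3 were higher and 8 were lower, with a median of -0.30, and TMM factors gave 5 higher. *Ccn1*, with a single annotated transcript, was measured at 800 and 851 FPKM in ADPKD+MMPP, a log2 fold change of 1.0 against ADPKD that became -0.15 after centring, and *Ccn2* was measured at 20.3 and 19.1 FPKM, a log2 fold change of -2.15 that became -0.44 after centring and was no longer called. *Myof* was at -3.48 and *Fjx1* at 1.48, before centring. They had 44.9% and 100% of their exon bases in 1 transcript, and the median of protein-coding genes with 100% was 1.10.

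Markers of other cells moved in this comparison too, and their part in the results was not tested. The counts and sums below were not centred by transcript structure, with which values in this comparison moved. They can therefore not be read as shifts in cell types alone. The counts stand beside 70.3% called of all genes tested (27.7% higher and 42.6% lower). Of 11 proximal tubule markers, 8 were higher, with sums of 270 to 879 FPKM in ADPKD and 13607 to 14266 FPKM in ADPKD+MMPP. Most of the latter was a single gene, *Kap*, at 12822 and 12116 FPKM in ADPKD+MMPP, and *Slc34a1*, *Slc22a8* and *Slc5a12* were not called. Of the 7 tested principal cell markers, 4 were higher and 2 were lower, with sums of 942 to 2482 and 5417 to 5441 FPKM, and 6 of 7 intercalated cell markers were higher, with sums of 29.2 to 63.4 and 184 to 194 FPKM. The 4 higher principal cell markers had 81.6% to 100% of their exon bases in 1 transcript, and the 2 lower had 7.37% (*Scnn1b*) and 75.8% (*Aqp4*). Of the 6 tested macrophage and leukocyte markers, 2 were higher and 4 were lower, with sums of 381 to 451 and 836 to 867 FPKM. Of 5 podocyte markers, 3 were lower, with sums of 90.8 to 205 and 87.2 to 89.7 FPKM, and 4 of 7 endothelial markers were lower, with sums of 528 to 538 and 312 to 342 FPKM. Of 8 stromal markers, 3 were higher and 4 were lower, with sums of 188 to 213 and 246 to 248 FPKM, and of 12 genes of dissociation and heat stress 8 were higher and 3 were lower, with sums of 5006 to 6692 and 12969 to 13121 FPKM.

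The genes whose pattern over the 6 libraries was most like a member's were found by the root mean square difference of log2(FPKM + 1), each gene centred on its own mean. For *Yap1* these were *Gstp-ps* (0.0795), *Smarca4* (0.0931) and *Trip12* (0.0934), and for *Wwtr1* they were *Eps8* (0.0448), *Pcgf2* (0.0599) and *Tle3* (0.0635). Each of these was lowest in both ADPKD+MMPP libraries, as were *Yap1* and *Wwtr1*, and *Gstp-ps* was at 0.268 and 0 FPKM there. The values were not corrected for transcript structure. Treatment and a different making of the ADPKD+MMPP values cannot be told apart in this likeness. For *Ankrd1* they were *Lgals3* (0.200), *Mfap4* (0.215) and *Mir7211* (0.220), which lay further from it. *Mfap4* and *Mir7211* were at 0.521 FPKM or lower in every WT and ADPKD+MMPP library. *Lgals3*, which encodes galectin-3, was measured at 169 and 225 FPKM in WT, at 631 and 699 FPKM in ADPKD and at 132 and 137 FPKM in ADPKD+MMPP, so like *Ankrd1* it was highest in both ADPKD libraries.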

How the data were processed

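Poly(A) RNA-seq of DBA-positive cells covered 3 groups of 2 libraries. The authors aligned reads to GRCm38 (mm10) with HISAT2 2.1.0, counted them with featureCounts 1.6.0 and deposited FPKM values. The annotation release and how FPKM were made are not given in the sources used here. Exon lengths and transcripts came from GENCODE vM21, and FPKM times exon length gave read numbers and depth (98.3% to 99.0% of low values were whole within 0.05). The 14862 genes reaching 1 FPKM in 2 or more libraries were tested on log2(FPKM + 1), which understates changes of low genes, with limma 3.58.1 in R 4.3.3 in a single fit over 6 libraries. An exact permutation test of 2 against 2 libraries cannot go below 0.333. Calls needed a fold change of 1.5 and a Benjamini-Hochberg adjusted p under 0.05. Replicates differed beyond sampling noise. Steps were tested on simulated data. The members, gene lists and alternatives were chosen with earlier results of these data known. The genes named are the members, *Pkd1*, *Ccn1*, *Ccn2*, the 3 highest and 3 lowest called genes of the wider lists in each comparison, and the 3 genes most like *Yap1*, *Wwtr1* and *Ankrd1*. A gene chosen by this rule is not reported here. *Mob1b*, *Amotl1*, *Nf2*, *Taok2*, *Stk3*, *Stk4*, *Sav1* and the single marker genes of the MMPP comparison were named after their values were seen. *Ptpn14* was named because it is in both the upstream and the target list.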

Additional observations from a re-analysis of the deposited data

How the results depend on the processing

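Of 170 values of the 10 genes under other settings in each comparison, 168 kept their call, or the lack of one, in ADPKD against WT. With MMPP, 156 did so against ADPKD and 157 against WT. Among these, 2, 4 and 3 values that were not called changed sign (*Tead4*, *Lats1*, and *Ankrd1* and *Lats1*). The settings are not independent, since leaving out either library of the group not compared gave the same calls as fitting only the groups compared. *Ankrd1* in ADPKD against WT ranged from 1.63 to 2.49 (adjusted p 0.00316 to 0.0330, limma) and *Lats2* from -1.54 to -1.22 (0.00227 to 0.0466).

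Centring by transcript structure turned *Lats1* (1.10) and *Ccn1* (-0.15) against ADPKD, and *Lats2* (0.64), *Ankrd1* (0.90) and *Ccn1* (-0.16) against WT. It gave 2 members higher, 4 members lower, 8 wider Hippo genes higher, 5 YAP targets lower and 3047 genes lower against ADPKD, 3 members higher and 3349 genes lower against WT, and 0 wider Hippo genes higher in ADPKD against WT. TMM gave 0 wider genes higher in ADPKD against WT, 9 wider genes and 5 targets higher against ADPKD, and 7 targets higher against WT. Quantile scaling gave 0 wider genes higher in ADPKD against WT and 4 lower against ADPKD. The common sum gave 0 wider genes higher and the fit of only the groups compared gave 1. A fold change of 2 gave 943 genes higher, 869 genes lower and 0 wider genes higher in ADPKD against WT, and 0 members higher against ADPKD. Of the genes called in ADPKD+MMPP against ADPKD, 39.4% were higher, and 53.9% under quantile scaling and 57.7% after centring; against WT 40.8% were higher, and 52.9% and 56.9%. The cause of these moves was not tested.

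Leaving out a library in ADPKD against WT gave 571 to 2247 genes higher, 497 to 2189 lower, 1 to 2 members in either direction, 0 to 1 wider genes higher, 2 to 5 wider genes lower and 1 to 6 targets higher; the 571 came without WT replicate 1 and the 586 without WT replicate 2. With the replicate number as a block, 1734 genes were higher and 1549 lower in ADPKD against WT, and no call of a member changed. Deviations of same-numbered libraries correlated at 0.129 (WT and ADPKD), -0.00796 (WT and ADPKD+MMPP) and 0.0137 (ADPKD and ADPKD+MMPP). Each group gives a single difference per gene, so these values cannot exclude a shared preparation of same-numbered libraries, and the labels do not say. With 2 libraries a group, no library could be tested as an outlier, and counts of 24 to 150 reads limit the precision of *Amotl2*, *Tead1*, *Tead2*, *Tead4* and *Yap1* after MMPP. Of the 20 read numbers of the members there, 19 were even, so how many independent fragments stand behind them is not known.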
